A study of Mus musculus with 4 samples.

Results

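The genes described here make bile acids in the liver and carry them, with their partner lipids, into bile. The set comprises 9 genes, namely Cyp7a1, Cyp8b1, Cyp27a1, Slc27a5, Baat, Slc10a1, Abcb11, Abcb4 and Abcc2, out of 19938 genes that the array measures with a probe set annotated to 1 gene symbol. The genes were chosen by name and not by their values, though earlier results of these data were known by then. For each gene the probe set with the highest mean over the 4 arrays was to be taken, and each of the 9 genes had exactly 1 such probe set.

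Livers of 4 male aP2-SREBP-1c mice aged 24 weeks, numbered 1 to 4, were profiled with 1 Mouse Gene 1.0 ST array for each mouse. On the C57Bl6 background these mice carry an HA-tagged, N-terminal, transcriptionally active fragment of human SREBP-1c, driven by the aP2 promoter in adipocytes. The study describes the transgene as silent in liver and the fatty liver as secondary to the loss of adipose tissue. All mice had regular chow and free access to water, and were killed by CO2 early in the morning. The labels give the same age for every mouse, whereas the study's methods give a wider span of ages. Since the 4 mice form 1 group and arrays of other phenotypes were not analysed here, levels and their spread between mice are given without a comparison between phenotypes and without p-values. Each mouse is a separate sample by its label, so the spread between arrays combines differences between animals with technical error.

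Bile acids are made from cholesterol in hepatocytes. The classic route starts with hydroxylation of the sterol ring by Cyp7a1, the alternative route starts with oxidation of the side chain by Cyp27a1, and Cyp8b1 sets how much cholic acid is formed. Finished bile acids are activated with coenzyme A and joined to taurine or glycine, are exported across the canalicular membrane together with phospholipid, and return through portal blood to be taken up again from the sinusoid. The nuclear receptor FXR, encoded by Nr1h4, senses bile acids and raises export while it lowers synthesis through the repressor SHP, encoded by Nr0b2, and through intestinal FGF15.

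Several of these genes are known to be controlled by receptors that bind close to the gene start. Windows of 250 bases before and 50 bases after the RefSeq start (assembly GRCm38.p6) were therefore searched for the elements of a few hepatic regulators. Windows were found for 6 of the 9 genes, 7 windows in all, since Slc10a1 has 2 starts. The 250 bases before the start are shown for Abcb11 and Cyp8b1, because each of these windows held a match, which is given in capitals. In Abcb11 (chr2:69342617-69342866, minus strand) the match is an inverted repeat of the half-site AGGNCA with 1 base between the copies, the kind of element that FXR binds. In Cyp8b1 (chr9:121916306-121916555, minus strand) it is the HNF4A element CAAAGTCCA.

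Abcb11: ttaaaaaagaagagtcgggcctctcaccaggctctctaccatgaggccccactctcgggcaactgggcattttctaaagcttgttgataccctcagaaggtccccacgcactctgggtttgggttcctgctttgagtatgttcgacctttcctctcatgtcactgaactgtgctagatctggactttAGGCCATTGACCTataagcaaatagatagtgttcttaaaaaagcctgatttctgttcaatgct
Cyp8b1: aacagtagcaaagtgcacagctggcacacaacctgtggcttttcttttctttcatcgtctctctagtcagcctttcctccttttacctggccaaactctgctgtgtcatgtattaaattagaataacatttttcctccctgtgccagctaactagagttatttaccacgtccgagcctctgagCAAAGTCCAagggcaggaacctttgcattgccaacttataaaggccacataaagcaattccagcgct

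The Abcb11 match spans bases -63 to -51 counted from the gene start, and the Cyp8b1 match spans bases -67 to -59. The search covered both strands, and the matches did not overlap. The inverted repeat AGGNCANTGNCCT was present in 0.0883% of 32851 windows of the same length in the genome, and the HNF4A element CAAAGTCCA in 0.475%. The NR5A2 element TCAAGGNCA was found in 0 of the 7 windows and in 1.62% of all windows. The HNF1 palindrome GTTAATNATTAAC was found in 0 of the 7 windows and in 0.00913% of all windows. These matches describe the sequence, and binding was not measured.

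All 9 genes were above background in every mouse. The background of each array was read from 1210 probe sets of odorant (Olfr) and vomeronasal (Vmn) receptor genes, sensory genes that served as a blank in liver. Its limit, their 95th percentile, lay between 5.33 and 5.52 on the log2 scale. By this limit 12264 genes, 61.5% of all named genes, were above background. The lowest value of any of the 9 genes was 8.997, for Cyp7a1 in mouse 1.

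In the data as deposited, mouse 1 stood apart from mice 2 to 4. Across genes above background the correlation between arrays ran from 0.974 to 0.993, and its lowest values were those of mouse 1 with mice 2 and 3. The shift of mouse 1 depended on the level of a gene. Over all genes above background the median difference of mouse 1 from the mean of the others was -0.08 (log2), but it was -0.23 over the 945 genes that lie in the same span of mean levels as the bile acid genes, 9.45 to 12.64. Liver identity was clear, with all 10 measured hepatocyte markers above background. Of the 10, 0 differed by more than 1.5-fold between mice, beside 12.9% of all genes above background. Of 14 measured markers of pancreatic acinar cells, 11 were above background, and all 11 differed by more than 1.5-fold, beside the same 12.9%. Their summed level was 11.86, 9.72, 10.06 and 11.58 (log2) in mice 1 to 4. They were thus high in mice 1 and 4. Mouse 1 was the lowest mouse for all 9 bile acid genes. This held for 46.1% of the genes above background and for 78.4% of the 945 genes of similar level. Mouse 4 was the second lowest for 7 of the 9, a count for which no share over all genes was taken. The part of the acinar signal in the values below was not tested.

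Among the enzymes of synthesis, Cyp7a1, the rate-limiting enzyme of the classic route, varied most. Its log2 expression was 8.997, 9.65, 9.67 and 9.50 in mice 1 to 4, with a mean of 9.45 ± 0.31 (SD, n = 4) and a 95% confidence interval of 9.21 to 9.70 with moderated variance. Mouse 1 was the only mouse outside this interval, which describes the mean and is not a range for single mice. For Cyp8b1, Cyp27a1, Abcb4 and Abcc2 too, 3 of the 4 values lay inside the interval of the mean. The transcript was 1.57-fold, 1.60-fold and 1.42-fold higher in mice 2, 3 and 4 than in mouse 1, and the range among mice 2 to 4 was only 1.13-fold.

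Cyp8b1, the sterol 12-alpha-hydroxylase, had values of 9.46, 9.78, 9.82 and 9.76, with a mean of 9.70 ± 0.17 (SD, n = 4). Here too mouse 1 lay below a close cluster of the other mice, which spanned 1.04-fold, the narrowest such span of the 9 genes. Cyp27a1, the mitochondrial sterol 27-hydroxylase, had 10.53, 10.79, 10.84 and 10.67, with a mean of 10.71 ± 0.14 (SD, n = 4). For this enzyme mouse 4 lay between mouse 1 and the pair of mice 2 and 3, and the whole range was 1.24-fold.

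The conjugating enzymes varied less than Cyp7a1. Slc27a5, the bile acid-CoA ligase, had log2 values of 10.87, 11.09, 11.12 and 10.98 in mice 1 to 4 and a mean of 11.01 ± 0.11 (SD, n = 4). Baat, which transfers the activated bile acid to taurine or glycine, had 10.25, 10.36, 10.48 and 10.57 and a mean of 10.41 ± 0.14 (SD, n = 4). Baat was the only one of the 9 genes with its highest value in mouse 4, and mouse 2 was closer to mouse 1 than to mouse 4. All 4 values of both genes lay within the 95% confidence intervals of their means, 10.85 to 11.18 for Slc27a5 and 10.24 to 10.59 for Baat.

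Slc10a1 encodes NTCP, the sodium-dependent carrier that takes conjugated bile acids up from portal blood. Its values were 12.52, 12.66, 12.74 and 12.63, with a mean of 12.64 ± 0.09 (SD, n = 4) and a range of 1.17-fold. The mice were thus close to each other, with mouse 1 lowest and mouse 3 highest.

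The 3 exporters of the canalicular membrane differed in how evenly they were expressed among the mice. Abcb11, the bile salt export pump BSEP, had 11.13, 11.18, 11.29 and 11.28 and a mean of 11.22 ± 0.08 (SD, n = 4). Its range of 1.11-fold was the smallest of the 9 genes, and mouse 2 was nearly as low as mouse 1. Abcb4, the phosphatidylcholine floppase that supplies phospholipid to bile, had 10.27, 10.57, 10.62 and 10.53 and a mean of 10.50 ± 0.16 (SD, n = 4), with mouse 1 below the others. Abcc2, the exporter MRP2 for bilirubin glucuronides and other organic anions, had 10.56, 11.07, 11.05 and 10.87 and a mean of 10.89 ± 0.24 (SD, n = 4). After Cyp7a1 it had the largest range, 1.43-fold, and mouse 2 and mouse 3 were both higher than mouse 4.

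**Figure D1:**
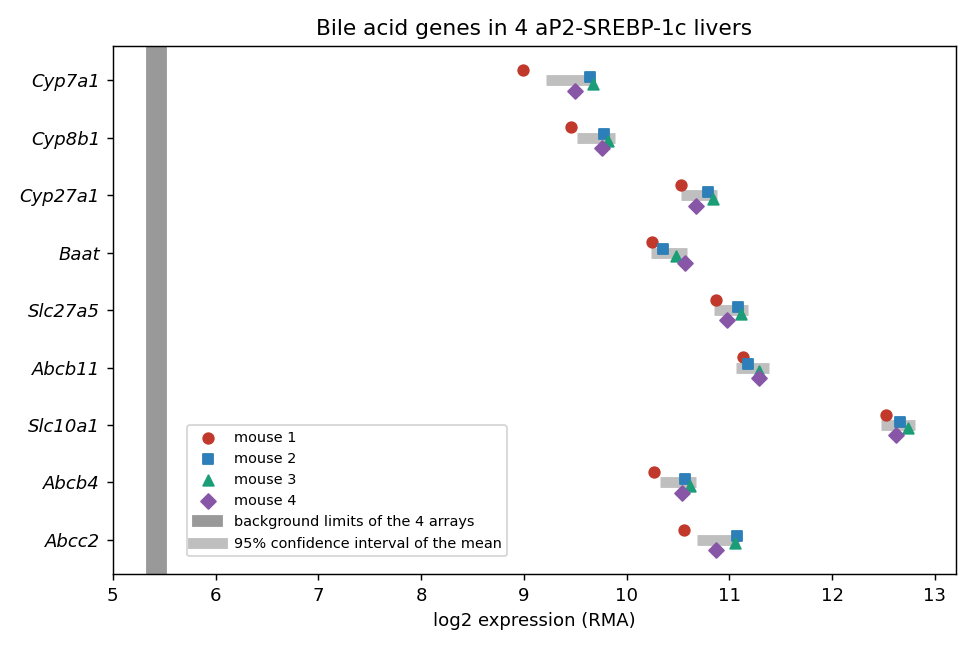
Log2 expression of the 9 bile acid genes in each mouse, with 1 point per mouse, the 95% confidence interval of the mean (light bar, n = 4) and the background limits of the arrays (dark band). The point of mouse 1 is the lowest for all 9 genes, from a gap of 1.60-fold to the highest mouse for Cyp7a1 to one of 1.11-fold for Abcb11.

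In the deposited values the 9 genes varied between mice about as much as other genes did. A span of more than 1.5-fold from lowest to highest mouse was found for 1 of the 9 genes, Cyp7a1, whereas 12.9% of the genes above background passed this limit. Among mice 2 to 4 it was 0 of 9, beside 2.67% of the genes above background. The median SD of the 9 genes was 0.14, which is close to the 0.15 of all genes above background and to the 0.15 of the 945 genes of similar level.

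All 9 genes had their lowest value in mouse 1, beside 46.1% of the genes above background and 78.4% of the genes of similar level. The highest value was in mouse 3 for 7 genes, in mouse 2 for Abcc2 and in mouse 4 for Baat. No share over all genes was taken for the mouse 3 count. With the median shift of genes of like level subtracted, only Cyp27a1 and Abcb4 were highest in mouse 3. As a median over the 9 genes, mouse 1 differed from the mean of the others by -0.24, while mice 2, 3 and 4 differed by 0.10, 0.16 and 0.05 (log2). The corresponding medians of the 200 genes nearest in mean level to each gene were -0.23, 0.08, 0.13 and 0.02. In mouse 1 the bile acid genes as a group were about as low as other genes of like level, and 5 of the 9 lay below their neighbours.

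**Figure D2:**
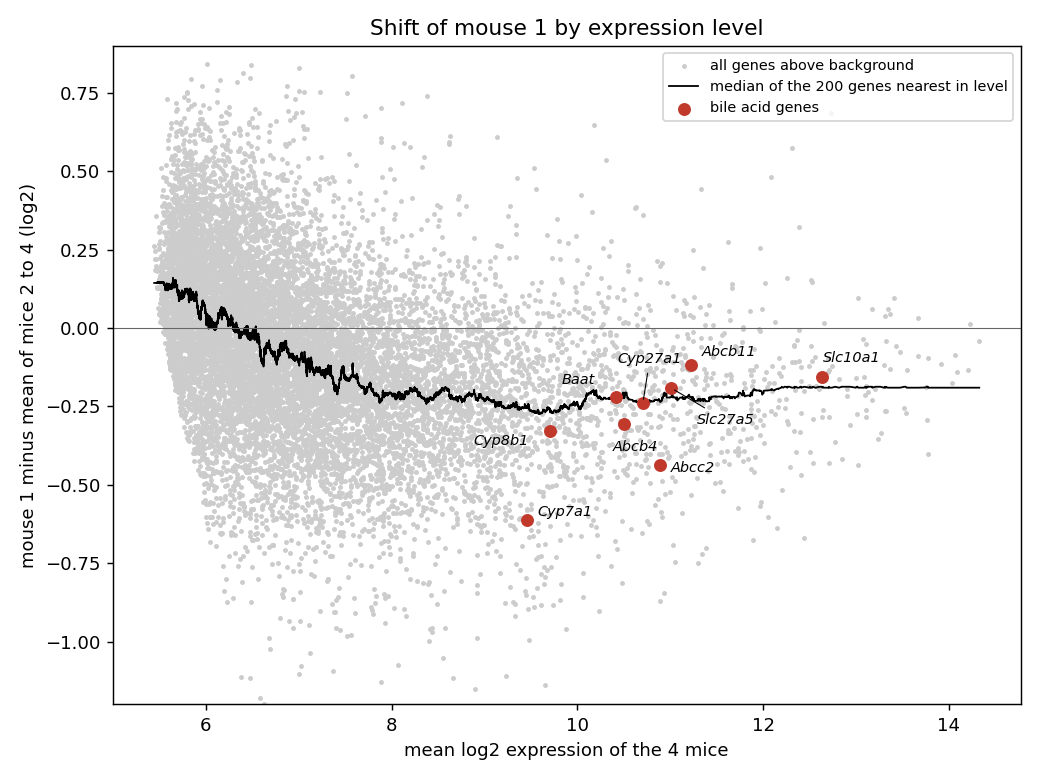
Difference of mouse 1 from the mean of mice 2 to 4 (log2) against mean log2 expression, for all genes above background (grey), the running median of the 200 genes nearest in level (line) and the 9 bile acid genes (red). Cyp7a1 at -0.61 and Abcc2 at -0.44 lie farthest below the line, Abcb11 at -0.12 lies above it, and 31 genes fall beyond the vertical axis.

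Single genes differed to varying degrees from the median of their neighbours, and the spread of the neighbours around that median was not assessed. Cyp7a1 differed in mouse 1 by -0.61, and genes of its level by -0.25. For Abcc2 the difference was -0.44 beside -0.23, for Cyp8b1 it was -0.33 beside -0.26, and for Abcb4 it was -0.31 beside -0.22. Cyp27a1 at -0.24, Baat at -0.22 and Slc27a5 at -0.19 were each within 0.03 of their neighbours, and Slc10a1 was at -0.16 beside -0.19. Abcb11 was less low than genes of its level, with -0.12 beside -0.22.

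When the shift of the neighbours was subtracted in each mouse, 4 of the 9 genes were lowest in mouse 1, beside 31.8% of all genes above background. The 4 were Cyp7a1, Cyp8b1, Abcb4 and Abcc2. The same 4 genes were lowest in mouse 1 after quantile normalization of the 4 arrays, beside 36.1% of all genes. With the neighbours subtracted, the difference in mouse 1 was -0.35 for Cyp7a1 and -0.20 for Abcc2, and the range of Cyp7a1 fell to 1.34-fold. For Abcb11 the sign turned to 0.10, and its lowest mouse became mouse 2. Baat kept its highest value in mouse 4, which was 0.17 above the mean of the other mice on this scale.

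**Figure D3:**
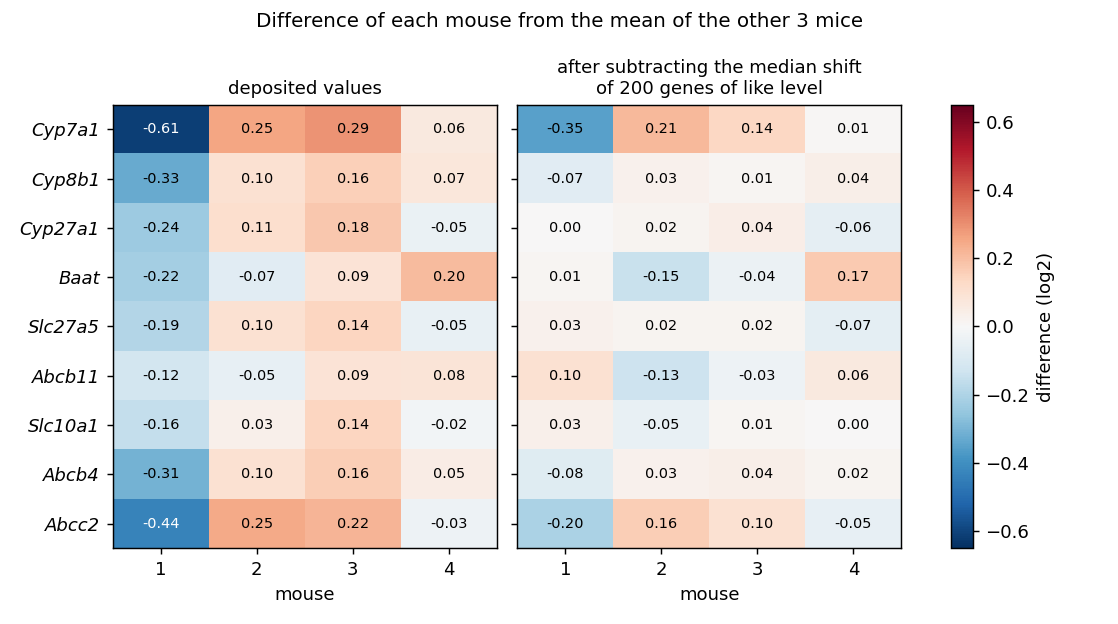
Difference of each mouse from the mean of the other mice (log2) for each of the 9 bile acid genes, as deposited and with the median shift of the 200 genes nearest in level subtracted. Cyp7a1 in mouse 1 moves from -0.61 to -0.35 and Abcb11 in mouse 1 moves from -0.12 to 0.10.

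The likeness of the genes was described by the root mean square difference of their deviations from their own mean over the 4 mice, where 0 means the same pattern. Cyp8b1 and Abcb4 were the most alike pair, with 0.013, followed by Cyp27a1 and Slc27a5 with 0.022. The least alike were Cyp7a1 and Abcb11 with 0.23. Among the bile acid genes, Abcc2 was nearest to Cyp7a1 with 0.080, but several genes outside the set were nearer. Gpd2, the mitochondrial glycerol-3-phosphate dehydrogenase, differed from the pattern of Cyp7a1 by 0.0047, with values of 8.48, 9.13, 9.15 and 8.97 in mice 1 to 4. Prps2, a phosphoribosyl pyrophosphate synthetase, differed by 0.013 with 6.73, 7.35, 7.39 and 7.21, and Gatb, a subunit of the mitochondrial glutamyl-tRNA amidotransferase, by 0.015 with 7.28, 7.96, 8.00 and 7.81. These 3 genes were the nearest of the 12264 above background, over only 4 mice.

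The wider pathway was examined in 5 lists of further genes with 73 members, of which 65 were measured and 62 were above background. Of these, 14 genes (22.6%) exceeded 1.5-fold between mice, beside 12.9% of all genes above background. Mouse 1 was lowest for 12 of the 14, and 3, Slco1a4, Abcc4 and Cgn, exceeded 1.5-fold among mice 2 to 4, where 2.67% of all genes did. With the neighbours subtracted 8 of the 62 exceeded the limit (12.9%), beside 9.80% of all genes. In total 45 of the 62 genes (72.6%) were lowest in mouse 1, beside 46.1% of all genes above background. The share was 78.4% among genes in the span of levels of the 9 bile acid genes. Many of the 62 lie below that span, so it is not their own background. With the neighbours subtracted 40.3% of the 62 were lowest in mouse 1, beside 31.8% of all genes. With quantile normalization it was 48.4%, beside 36.1% of all genes.

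Of the other genes of synthesis, conjugation and side chain shortening, 2 of 17 above background exceeded 1.5-fold (11.8%, close to the 12.9% of all genes). With median centring 5 of the 17 did, beside 16.1% of all genes. The 2 genes over the limit as deposited both encode acyl-CoA N-acyltransferases related to Baat. Acnat1 had 10.21, 10.93, 11.01 and 10.64 in mice 1 to 4, a range of 1.75-fold. Acnat2 had 8.15, 8.96, 9.01 and 8.90, a range of 1.81-fold, with mouse 1 well below a cluster of the other mice. These are close paralogs, and it is not known here whether they share probes. The most even genes of the list were Cyp7b1, the oxysterol 7-alpha-hydroxylase of the alternative route, with 10.12, 10.004, 10.15 and 10.11, and Slc27a2, a very long chain acyl-CoA synthetase, with 12.62, 12.77, 12.73 and 12.65. Cyp7b1 was lowest in mouse 2 and not in mouse 1. Ch25h, the cholesterol 25-hydroxylase, was not above background.

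Of the other transporters, 5 of 14 above background exceeded 1.5-fold (35.7%), beside 12.9% of all genes above background. With quantile normalization or with the neighbours subtracted 2 of the 14 did, beside 10.6% and 9.80% of all genes. Slco1a4, an organic anion transporter of the sinusoidal membrane, had 6.18, 7.20, 7.68 and 6.97, and its range of 2.82-fold remained at 1.63-fold without mouse 1. Abcg2, an exporter of sulfated and other conjugates, had 9.06, 9.92, 9.93 and 9.71, a range of 1.83-fold. Both were clearly lowest in mouse 1.

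The basolateral exporter Abcc3 had 9.65, 10.25, 10.30 and 10.07, and the sinusoidal uptake carrier Slco1b2, which takes up unconjugated bile acids in mice, had 11.11, 11.66, 11.72 and 11.42, with ranges of 1.57-fold and 1.53-fold. Abcc4, another basolateral exporter, went another way with 6.65, 6.48, 6.34 and 6.93, highest in mouse 4 and lowest in mouse 3. The smallest SDs were those of Slco2b1 (0.05) and Abcg8 (0.07), the latter a subunit of the biliary sterol exporter. Slc51a, a subunit of the basolateral exporter OST, and Abcb1b were not above background.

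Of the receptors and factors that control these genes, all 15 measured were above background. Of these, 4 exceeded 1.5-fold (26.7%), beside 12.9% of all genes above background. Ppara alone did so with the neighbours subtracted, beside 9.80% of all genes. Ppara, the fatty acid receptor, had 8.63, 9.44, 9.55 and 9.08, a range of 1.89-fold. Nr1i3, the xenobiotic receptor CAR, had 7.45, 8.20, 8.17 and 7.78, and Prox1, a corepressor of Cyp7a1, had 8.05, 8.66, 8.67 and 8.42. Klb, the co-receptor through which FGF15 lowers bile acid synthesis, had 7.30, 7.85, 7.91 and 7.63.

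All 4 were lowest in mouse 1 and intermediate in mouse 4, and none exceeded 1.5-fold among mice 2 to 4. The partner receptor Fgfr4 was among the most even factors, with 7.70, 7.76, 7.72 and 7.90, as was Nr5a2 (LRH-1), an activator of Cyp7a1 and Cyp8b1, with 8.31, 8.40, 8.38 and 8.47. Outside the naming rule, and chosen after their values were seen, FXR (Nr1h4) had 9.41, 9.63, 9.74 and 9.77 and SHP (Nr0b2) had 6.87, 6.77, 6.99 and 6.98. FXR was lowest in mouse 1, whereas SHP was lowest in mouse 2, with a range of 1.16-fold.

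Of the genes of the canalicular scaffold, junctions and vesicle traffic, 1 of 11 exceeded 1.5-fold (9.09%, beside 12.9% of all genes). With median centring 3 did, beside 16.1% of all genes. With quantile normalization and with the neighbours subtracted 2 did each time, beside 10.6% and 9.80% of all genes. The 1 gene over the limit as deposited was Cgn, the tight junction protein cingulin, with 7.40, 7.34, 7.13 and 6.62, lowest in mouse 4. In the list of bile acid hydroxylation and sulfation, all 5 genes measured were lowest in mouse 1, beside 46.1% of all genes above background. Among the genes in the span of levels of the 9 bile acid genes this share was 78.4%. Of the 5, 2 exceeded 1.5-fold, beside 12.9% of all genes. Papss2, which makes the sulfate donor, had 9.56, 10.55, 10.54 and 10.28, a range of 1.99-fold. Sult2a8, a bile acid sulfotransferase of mouse liver, had 10.80, 11.57, 11.68 and 11.33, a range of 1.83-fold. With the neighbours subtracted both still exceeded 1.5-fold, at 1.72-fold and 1.53-fold. So did Slco1a4 at 2.62-fold, Abcg2 at 1.53-fold, Ppara at 1.57-fold, Acnat2 at 1.55-fold and Cgn at 1.86-fold. Outside the naming rule, Vipas39 of the canalicular list also did at 1.51-fold, though not as deposited (1.47-fold).

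**Figure D4:**
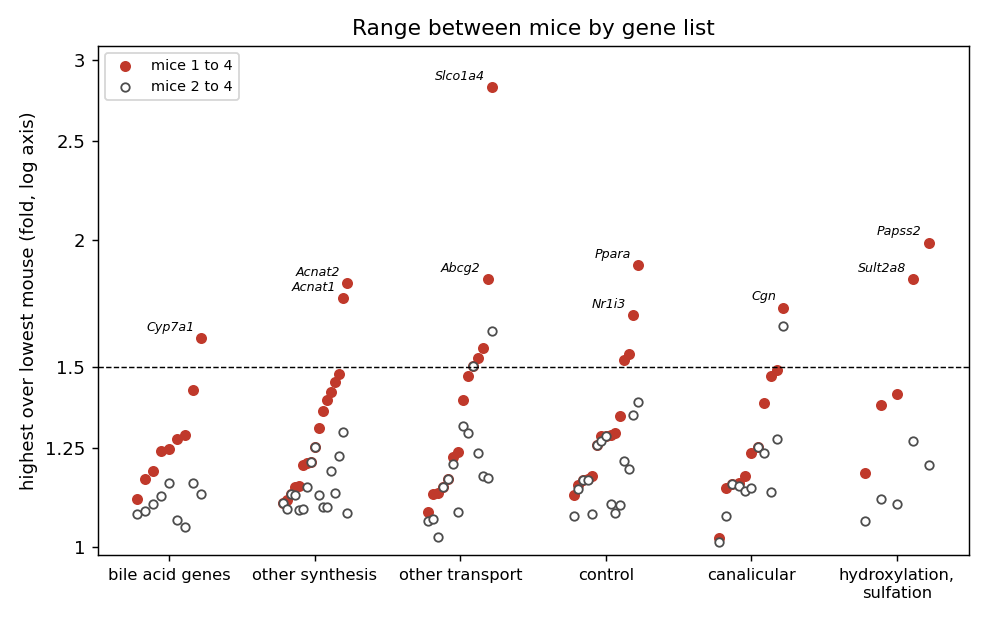
Highest over lowest mouse (fold, log axis) for each gene above background of the bile acid set and of the 5 further lists, over mice 1 to 4 (filled) and over mice 2 to 4 (open), with a dashed line at 1.5-fold. Of the 9 bile acid genes only Cyp7a1 lies over the line, and Slco1a4 at 2.82-fold is the highest point.

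Some further gene groups were low in mouse 1. Pericentral hepatocyte genes, expressed near the central vein where Cyp7a1 is also known to be higher, were above background for 9 of 10 measured genes. Of the 9, 8 were lowest in mouse 1 and 4 exceeded 1.5-fold, beside 46.1% and 12.9% of all genes above background. With the neighbours subtracted 3 of the 9 exceeded it, beside 9.80% of all genes, and their median difference in mouse 1 was -0.26. The summed level of the 9 was 13.98, 14.47, 14.51 and 14.26 (log2) in mice 1 to 4. The marker Axin2 was not above background on all arrays. The 9 periportal genes did not share this order, with 0 over 1.5-fold and a median difference of 0.02 in mouse 1. With the neighbours subtracted that difference was 0.23.

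Acute phase genes exceeded 1.5-fold for 8 of 14 genes, beside 12.9% of all genes above background. They were lowest in mouse 1 for 12 of 14, beside 46.1% of all genes, with a summed level of 15.03, 15.24, 15.27 and 15.19. Genes of the highest level weigh most in this sum, such as Hamp with a range of 1.15-fold. The widest ranges of the list were those of Lcn2 at 5.80-fold and Saa2 at 5.47-fold, both lowest in mouse 1. With the neighbours subtracted 5 of the 14 exceeded 1.5-fold, beside 9.80% of all genes, and their median difference in mouse 1 was -0.26. Of the clock genes, which are known to drive a daily rhythm of Cyp7a1, 2 of 14 above background exceeded 1.5-fold (14.3%, close to the 12.9% of all genes). Of the 14, 5 were lowest in mouse 1, beside 46.1% of all genes. Nr1d1, the repressor REV-ERB alpha, had 7.95, 8.64, 8.94 and 8.45 and was lowest in mouse 1, whereas the factor Nfil3 had 7.59, 7.49, 7.35 and 8.01 and was lowest in mouse 3. Nr1d2 and Cry1 had the smallest SDs of the list, 0.05 and 0.06. The part of zonation, inflammation and time of day in the values of Cyp7a1 was not tested.

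Other cell types of the liver and gut were followed by their markers. Cholangiocyte markers were above background for 4 of 8 measured genes. Of the 4, 0 exceeded 1.5-fold and 2 were lowest in mouse 1, beside 12.9% and 46.1% of all genes above background. The summed level of the 4 was between 8.47 and 8.67. The cholangiocyte markers Epcam, Cftr, Sctr and Muc1 were not above background. All 10 markers each of macrophages, stellate cells and sinusoidal endothelium were above background. Of these, 2, 3 and 1 exceeded 1.5-fold, beside 12.9% of all genes above background.

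In these lists 6, 6 and 7 of 10 markers were lowest in mouse 1, beside 46.1% of all genes above background. Summed levels were 11.11 to 11.32 for macrophages, 11.56 to 12.29 for stellate cells and 11.19 to 11.50 for endothelium. Of the sterol genes controlled by SREBP-2, which supply the cholesterol from which bile acids are made, 9 of 10 were lowest in mouse 1. Of the 10, 2 exceeded 1.5-fold. Of all genes above background, 46.1% were lowest in mouse 1 and 12.9% exceeded 1.5-fold. With the neighbours subtracted 0 of the 10 sterol genes exceeded it, and their median difference in mouse 1 was -0.0008.

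Of the intestinal bile acid genes, 6 of 8 were above background, while Fabp6 and Vil1 were not. Of the 6, 1 exceeded 1.5-fold and 4 were lowest in mouse 1, beside 12.9% and 46.1% of all genes above background. The part of these cell types in the values of the bile acid genes was not tested. In whole liver RNA, fewer hepatocytes and less RNA per hepatocyte cannot be told apart.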

How the data were processed

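Liver RNA (150 ng per mouse) of 4 aP2-SREBP-1c mice was hybridized to Mouse Gene 1.0 ST arrays. The deposited values are log2 expression values that the authors computed by RMA, which corrects background, applies quantile normalization and summarizes probes by median polish. The submitters' processing notes name RMA and the Affymetrix Expression Console. Which arrays were normalized together and the genome build are not given in the sources used here. All columns were matched to mice by their labels, with 0 left over, and no pair of arrays shared more than 25 identical values. The precision is limited by the number of arrays.

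Of 35556 probe sets, 21789 had 1 gene symbol, 1621 had several and 12146 had none in the annotation used here. Gene identifiers of 21698 matched RefSeq (GRCm38.p6). Several probe sets were present for 999 genes, and the brightest on average was used. Confidence intervals came from a one-group fit (lmFit and eBayes, limma 3.58.1, R 4.3.3). Other steps used Python 3.11.15, numpy 2.4.6, pandas 2.3.3 and matplotlib 3.10.9. The summed level of a list is the log2 of the sum of its linear values over the genes above background. On simulated data for 12264 genes, 94.6% of the 95% intervals held the true mean, and 100% of 200 genes moved by 1 (log2) in 1 array exceeded 1.5-fold. That move is larger than the limit, so the last share says little. The simulated noise was independent between genes, unlike the shift of mouse 1.

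The bile acid genes and all lists were chosen with earlier results of these data known. Named were all 9 genes, at most 5 genes over 1.5-fold and at most 4 below background of the other lists, the 2 most even genes of the synthesis, transport, control and clock lists, and the 3 genes nearest to Cyp7a1. From the lists of cell types and other processes only those genes are named that the text turns on. Alternatives were median centring, quantile normalization, subtraction of the shift of the 200 genes nearest in level, the mean of probe sets, other limits, no filter and leaving out each mouse.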

Additional observations from a re-analysis of the deposited data

Results flagged for a closer look

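Acnat2 in mouse 1 lay apart from the other mice. Its value was lower than their mean by a difference of -0.81 (log2), and the gap to the nearest mouse took up more of the range of the 4 mice than the 95% critical value of Dixon's test allows. Of 71 genes examined, the 9 bile acid genes and the 62 genes of the further lists, this was the only one (1.41%), and it was found for 0 of the 9. Chance alone gives about 1 in 20 groups, and 5.75% of all genes above background met the same criterion. With the shift of genes of like level subtracted, the difference of Acnat2 in mouse 1 was -0.58.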

How the results depend on the processing

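The levels of the 9 genes moved by less than their SD in 72 of 72 alternative values, and 69 of 72 fold ranges stayed on the same side of 1.5-fold. The exceptions were Cyp7a1 with quantile normalization (1.39), with the neighbours subtracted (1.34) and without mouse 1 (1.13). The number of bile acid genes over the limit was therefore 0 with quantile normalization, 0 with the neighbours subtracted and 0 with a 2-fold limit, and ranged from 0 (without mouse 1) to 1 when each mouse was left out. Among all genes it was 1584, and it became 138 with a 2-fold limit and 3749 with no filter on low values, where more genes are counted. Leaving out each mouse gave 344 (without mouse 1) to 1294. The median SD of the 9 genes fell from 0.14 to 0.062 with quantile normalization and to 0.041 with the neighbours subtracted. Over all genes above background it was 0.15 as deposited and 0.14 with each of these scalings. When each mouse was left out, the median SD of the 9 genes was 0.073 (without mouse 1) to 0.17. The median difference in mouse 1 was -0.24 as deposited, -0.31 with median centring, -0.069 with quantile normalization and 0.0002 with the neighbours subtracted, a change of sign that follows from the subtraction of a shift of the same size. It ranged from -0.29 to -0.21 when mouse 2, 3 or 4 was left out, and has no value without mouse 1. Median centring moved the median difference of all genes in mouse 1 from -0.08 to -0.16. No paired analysis was possible because a single group holds no partner samples. With 4 arrays of 1 group, no detection calls and 1 probe set per gene, small differences between mice cannot be told from technical error.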
